A study of Mus musculus with 2 samples.

Results

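The 10 genes described here, Dusp1, Dusp4, Dusp5, Dusp6, Ier2, Ier3, Ier5, Btg2, Gadd45b and Gadd45g, encode inducible MAP kinase phosphatases, immediate early response proteins and growth arrest proteins. They were taken by name from the GENCODE M21 mouse annotation, in which they are 10 of 21938 protein-coding genes, and all 10 were found. Chromatin accessibility was measured by DNase-seq, in which the nuclease DNase I cuts DNA that proteins leave exposed, in the left cerebral cortex of 2 female B6CASTF1/J mice, first-generation offspring of B6 and CAST parents, aged 36 days. The labels name no treatment, number the animals separately and list 1 donor entry for both. With 1 library per animal (replicate 1 and replicate 2) and a single group, conditions could not be compared and no test was made. The values describe which sites at these genes were accessible and how far the mice differed.

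MAP kinases pass growth factor and synaptic signals to the nucleus, and genes switched on by that signal include several that shut it off again. Dusp1 and Dusp4 encode nuclear phosphatases that inactivate MAP kinases, Dusp5 a nuclear and Dusp6 a cytoplasmic phosphatase with a preference for ERK. Ier2, Ier3 and Ier5 are immediate early response genes, Btg2 encodes an antiproliferative protein that is a p53 target and acts with the CCR4-NOT deadenylase, and Gadd45b and Gadd45g encode stress and growth arrest proteins that activate the kinase MAP3K4 and are induced by neuronal activity. Many immediate early promoters carry cAMP response elements (CRE), the site of CREB, or serum response elements (CArG boxes), the site of SRF.

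Sequences of promoters that carry a CRE, or the same motifs in the same order, are shown first. All read 5′ to 3′ on the strand of the gene in the GRCm38.p6 reference, and the CAST alleles of the mice were not examined. They hold only bases of the promoter region called in both mice that lie outside annotated exons. The promoters come from RefSeq's table, in which 8 of the 10 genes matched. Ier2, which also carries a CRE, and Dusp4 did not match and are named only. Capitals mark CRE (TGACGTCA) and SP/KLF (GGGCGGG) matches in Dusp1 (chr17:26508520-26508722, minus strand) and Btg2 (chr1:134079156-134079360, minus strand).
Dusp1: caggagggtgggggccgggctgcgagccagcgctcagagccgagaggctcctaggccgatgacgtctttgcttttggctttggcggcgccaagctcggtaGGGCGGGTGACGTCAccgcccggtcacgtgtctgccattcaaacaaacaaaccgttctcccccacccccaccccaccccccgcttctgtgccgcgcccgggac
Btg2: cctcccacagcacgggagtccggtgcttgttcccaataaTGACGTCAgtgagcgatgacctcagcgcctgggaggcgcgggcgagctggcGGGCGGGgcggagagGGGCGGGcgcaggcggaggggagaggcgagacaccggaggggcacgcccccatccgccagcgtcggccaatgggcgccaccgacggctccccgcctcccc

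In the Gadd45b (chr10:80929861-80930072, plus strand) and Gadd45g (chr13:51846501-51846674, plus strand) promoters the capitals mark, from left to right, an E-box (CACGTG), then boxes named CCAAT for their letters, and a TATA box (TATAAA).
Gadd45b: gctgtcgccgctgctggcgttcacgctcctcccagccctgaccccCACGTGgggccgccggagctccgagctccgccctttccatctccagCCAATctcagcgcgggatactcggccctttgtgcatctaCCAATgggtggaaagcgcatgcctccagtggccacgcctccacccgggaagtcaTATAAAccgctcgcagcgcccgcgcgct
Gadd45g: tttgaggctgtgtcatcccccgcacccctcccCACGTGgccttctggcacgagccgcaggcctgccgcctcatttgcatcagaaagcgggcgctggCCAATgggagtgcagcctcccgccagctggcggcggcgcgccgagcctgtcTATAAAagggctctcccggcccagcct

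The highest and the lowest promoter of the group are set beside each other next. Capitals mark CCAAT boxes, read as ATTGG where they lie on the other strand, and an SP/KLF match in Ier5 (chr1:155099637-155099760, minus strand), and a CCAAT box and an NF-kappaB match in Ier3 (chr17:35821521-35821683, plus strand).
Ier5: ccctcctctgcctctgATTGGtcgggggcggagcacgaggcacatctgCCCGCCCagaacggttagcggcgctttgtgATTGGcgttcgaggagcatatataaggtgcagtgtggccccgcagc
Ier3: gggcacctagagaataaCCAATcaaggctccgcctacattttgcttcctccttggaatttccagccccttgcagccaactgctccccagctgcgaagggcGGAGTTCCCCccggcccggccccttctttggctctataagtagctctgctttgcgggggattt

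The labelled tissue was checked against marker genes, beside a share of 61.1% of all protein-coding genes with such a region. Regions called in both mice lay within 1 kb of a start at 6 of 6 excitatory neuron markers, 4 of 5 astrocyte, 2 of 5 interneuron, 2 of 5 oligodendrocyte and 0 of 4 microglia markers. They lay at 0 of 4 liver markers and at 1 of 4 muscle markers, Ckm. The lists held 69208 and 69128 peaks in replicate 1 and replicate 2. The files give no read totals, so depth is unknown. Heights are the authors' signal values with a factor per library that is not stated, so each height is also given as its percentile within its own list. Across 45612 regions with 1 peak per mouse, replicate 2 was lower by a median factor of 0.744, and the log2 ratio centred on that median had an SD of 0.477, which is the spread between the mice used below.

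All 10 genes had a promoter region, a merged region with a peak of both mice within 1 kb of an annotated start, against 61.1% of protein-coding genes. In 8 of 10, all but Dusp4 and Ier3, the promoter peak was in the top 10 percent of heights of both lists, against 24.1% of protein-coding genes. That share is 5277 genes, all of them among the 13401 with a promoter region. The median of the mean height percentile was 94.9 for the 10 genes and 88.4 for protein-coding genes with a promoter region. Ranked among the latter genes only, Ier3 stood at percentile 14.9 and Dusp4 at 39.2. The other 8 ran from 69.4 in Btg2 to 93.6 in Ier5. The promoters of the 10 genes had a median CpG observed over expected ratio of 0.791, against 0.550 for all protein-coding genes, with or without a promoter region. Their median GC content was 62.5% against 55.7%. CpG percentiles among all protein-coding genes ran from 52.0 in Ier3 and 54.4 in Ier2 to 85.0 in Dusp1. Whether CpG content accounts for the heights was not tested.

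Among the phosphatases, Dusp6 had the highest promoter peak, 7.19 in replicate 1 and 5.23 in replicate 2 (percentiles 96.8 and 97.4). Dusp1 followed with 6.41 and 4.63 (95.3 and 96.0). Dusp5 reached 6.30 and 4.10 (95.1 and 94.4). Dusp4 stood apart from these with 3.04 and 2.57 (80.9 and 87.3), lower than the other three in each mouse.

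The immediate early response genes spanned the whole range. Ier5 had the highest promoter peak of the 10 in each mouse, 9.08 and 5.85 (98.8 and 98.4). Ier2 had 6.22 and 4.35 (94.9 and 95.3). Ier3 had the lowest in each mouse, 1.40 and 1.31 (57.7 and 68.4), not far above the medians of all peaks, 1.17 and 0.909.

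The growth arrest genes lay between. Gadd45b was second in each mouse with 8.12 and 5.39 (98.0 and 97.7). Gadd45g had 6.12 and 3.99 (94.7 and 94.1), and Btg2 had 5.39 and 4.15 (92.6 and 94.6). The order of the first 4 (Ier5, Gadd45b, Dusp6, Dusp1) and of the last 2 (Dusp4, Ier3) was the same in both mice, and the 4 genes between them changed places by at most 2 ranks. Neither those 4 nor neighbouring genes among the first 4 differed beyond the spread between the mice. Centred log2 ratios of replicate 2 over replicate 1 at the 10 promoters ran from -0.21 in Ier5 to 0.34 in Ier3, inside the SD of 0.477.

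**Figure D1:**
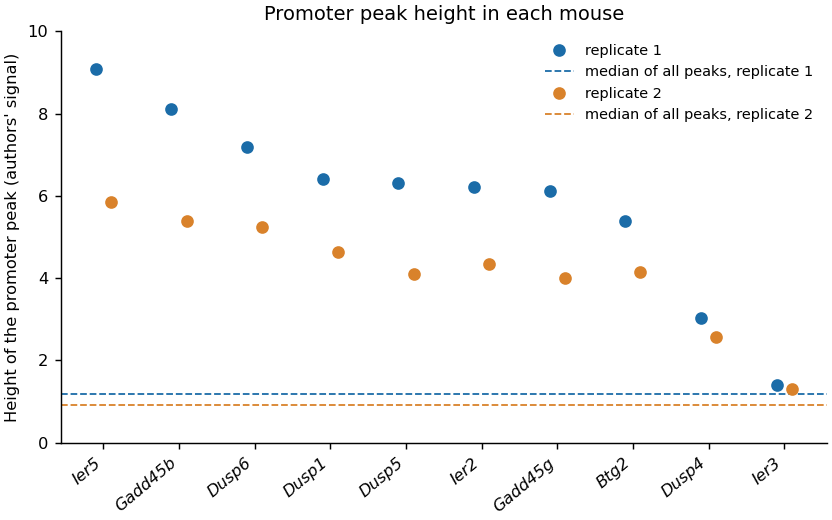
Height of the promoter peak (authors' signal, vertical axis) of each gene in replicate 1 (blue) and replicate 2 (orange), ordered by replicate 1, with dashed lines at the median height of all peaks of each library. Ier5 is highest at 9.08 and 5.85, and Ier3 is lowest at 1.40 and 1.31.

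The deposited false discovery rate (FDR) of the cut rate came from the same libraries and is not independent of the peaks. Its lowest value within 1 kb of a start was under 0.001 in both mice at 10 of 10 genes, against 61.8% of protein-coding genes. The cut of 0.001 is also that taken for the shorter peak lists. This count therefore largely restates the promoter regions, which 61.1% of protein-coding genes had. On the log10 scale the lowest FDR was smallest at Gadd45b, -115.1 and -102.2 in replicate 1 and replicate 2, and largest at Ier3, -4.8 and -9.9. Dusp4 was next to Ier3 with -11.5 and -17.4. The 2 genes with the lowest promoter peaks also had the weakest cut rate calls.

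Footprints are short stretches inside accessible DNA with fewer cuts than their surroundings, as a bound protein leaves. The windows of gene body and 20 kb on each side held 419 in replicate 1 and 352 in replicate 2. Of these, 184 (43.9%) of replicate 1 overlapped one of replicate 2, and 194 (55.1%) of replicate 2 overlapped one of replicate 1, against 44.2% and 46.2% of footprints of the genome. Within 40 bases downstream of the main start, footprints of both mice overlapped in 9 of 10 genes, all but Dusp4, against 43.8% of genes with a promoter region. This window was chosen after the footprints had been seen.

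The full CRE was searched in the 300 bases from 250 before to 50 after the main start. It was present in 3 of 10 genes, Dusp1, Ier2 and Btg2, against 2.43% of protein-coding genes and 3.38% of those with a promoter region. In promoter regions called in both mice it was present in the same 3 genes, against 4.98% of genes with such a region. These regions spanned a median of 840 bp per gene in the 10 genes and 440 bp in genes with a promoter region, so more sequence was searched in the 10. The full CRE lay 93 bases before the start of Dusp1, 42 before that of Ier2 and 198 before that of Btg2. All 3 matches were overlapped by a footprint in both mice, against 83.8% of CRE matches in promoter regions of protein-coding genes. In Dusp1 the footprint ran from -104 to -78 in replicate 1 and from -105 to -80 in replicate 2, and it covered the adjoining SP/KLF match printed above as well. In Btg2 the footprints ran from -201 to -191 and from -208 to -189, while the replicate 2 peak of the merged region ended short of the CRE. The CRE core TGACG, which every full CRE contains, was found in 5 of 10 genes in the 300 bases. Its share was 23.7% of protein-coding genes and 31.2% of those with a promoter region.

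Gadd45b and Gadd45g shared an arrangement. In Gadd45b an E-box lay at -164, a CCAAT box at -119 and a TATA box at -25. In Gadd45g they lay at -142, -79 and -27. Each of these 6 matches was overlapped by a footprint in both mice, while a further CCAAT box of Gadd45b at -80 was not. The E-box, CCAAT box and TATA box occurred together in the 300 bases of 0.305% of protein-coding genes, a combination looked up after it had been seen in this pair. The shares of matches in promoter regions under footprints of both mice were 30.3% for the E-box and 17.7% for the TATA box. For the CCAAT box 2091 of 10435 such matches were under them.

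**Figure D2:**
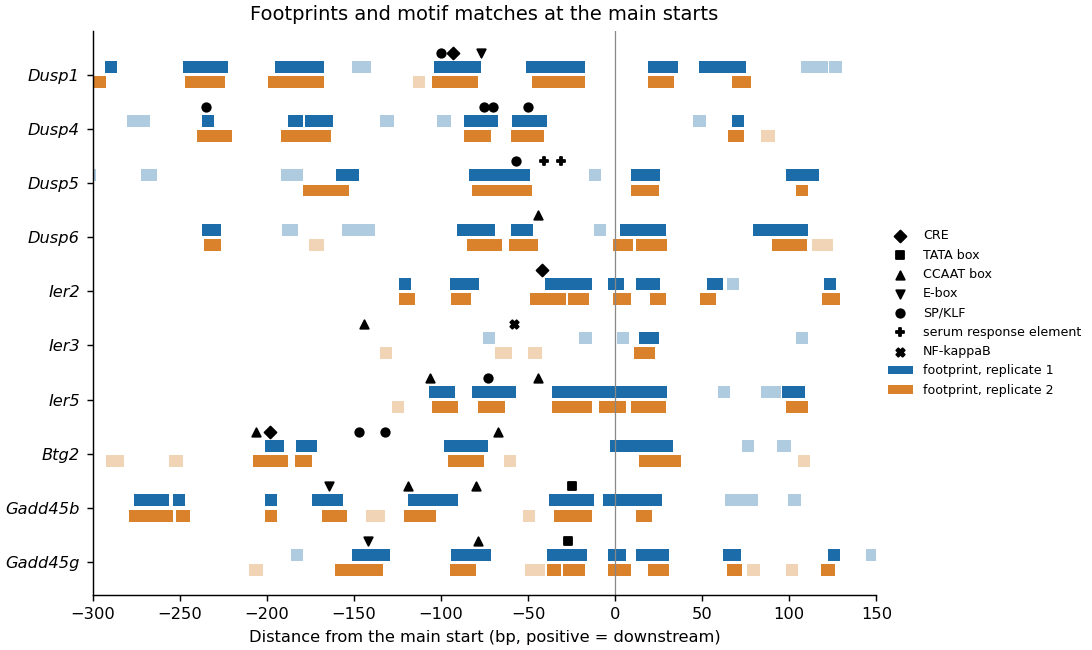
Footprints from 300 bp before to 150 bp after the main start (horizontal axis, bp) of each gene in replicate 1 (blue) and replicate 2 (orange), pale where no footprint of the other mouse overlaps, with motif matches as black symbols above. Dusp1, Ier2 and Btg2 have a CRE over blue and orange footprints, and Gadd45b and Gadd45g have an E-box, a CCAAT box and a TATA box in the same order.

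Other motifs were searched on both strands in the same 300 bases. SP/KLF was found in 5 of 10 genes (Dusp1, Dusp4, Dusp5, Ier5 and Btg2), against 33.2% of protein-coding genes and 46.8% of those with a promoter region. The count was close to the latter share. Dusp4 held 4 such matches, at -235, -75, -70 and -50, each overlapped by a footprint in both mice. Counted over all regions within 1 kb of the main starts, which reach beyond the 300 bases, 7 of 11 matches were so overlapped, against 47.0% of matches in promoter regions. The other 4 were 2 in Btg2, at -147 and -132, and those of Ier2 and Ier5 at 1179 and 785 bases downstream of the start. The CCAAT box was found in 6 of 10 genes (38.0%), the E-box in 3 (7.72%) and the TATA box in 2 (13.3%), where the percentages are those of all protein-coding genes. Among genes with a promoter region these shares were 37.7%, 9.87% and 7.21%.

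The serum response element, searched as a CArG box, was found in Dusp5 only. The shares were 1.49% of protein-coding genes and 1.28% of those with a promoter region. Dusp5 had a pair, at -41 and -31, just outside footprints that ran from -84 to -50 in replicate 1 and from -82 to -49 in replicate 2. Neither was overlapped by a footprint in either mouse, and 17.2% of matches in promoter regions of protein-coding genes were overlapped in both. NF-kappaB was found in Ier3 only (9.22%), at -58, under a footprint of replicate 2 alone. EGR (GCGTGGGCG or GCGGGGGCG, 4.72%), ETS (CCGGAA, 17.9%), AP-1 (TGANTCA, 6.80%), NRF1 (1.17%), MEF2 (0.506%) and the glucocorticoid element (0.00456%) were found in 0 of 10 genes. Among genes with a promoter region the shares were 10.6% for NF-kappaB, 6.84% for EGR, 26.1% for ETS and 4.40% for AP-1. They were 1.84% for NRF1 and 0.351% for MEF2. The longer promoter regions called in both mice held AP-1 in 3 of 10 genes (7.73%), ETS in 6 (39.7%) and NF-kappaB in 4 (20.3%). They held the serum response element in 3 genes (1.89%) and EGR in 1 (12.6%), where the percentages are those of genes with a promoter region. A match is a description of letters, and a missing one says only that these letters are not in the window.

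Promoters included, the windows of gene body and flanks held 80 merged regions, of which 54 (67.5%) were called in both mice, against 58.6% of merged regions of the genome. Of the 54, 21 lay at the gene's own main start, 8 at a start of another protein-coding gene, 3 in the gene body and 22 in the flanks. At least 2 separate promoter regions were called in 7 of 10 genes, against 25.5% of protein-coding genes. That share is 5603 genes, all of them among the 13401 with a promoter region, as all 10 genes are. At least 5 regions were called in 5 of 10 genes (Dusp1, Ier3, Btg2, Gadd45b and Gadd45g), against 24.9%. A region centred in the gene body whose nearest edge lay over 1 kb from the main start was called in 4 of 10 genes (Dusp1, Dusp4, Dusp6 and Gadd45g), against 33.5%. In Dusp1 this was only the region at a start of Ergic1, which is not among the 3 gene body regions counted above. A further region in Ier2 had its centre 1131 bp from the start but its edge within 1 kb. The 10 genes are short (median 3614 bp against 17425 bp), and density was counted per 10 kb of window. This does not remove the effect of length, because regions at a start weigh more in a shorter window. The median density was 1.00 against 0.339 for protein-coding genes. With flanks of 10 kb it was 1.26 against 0.351, and with flanks of 50 kb 0.883 against 0.330.

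**Figure D3:**
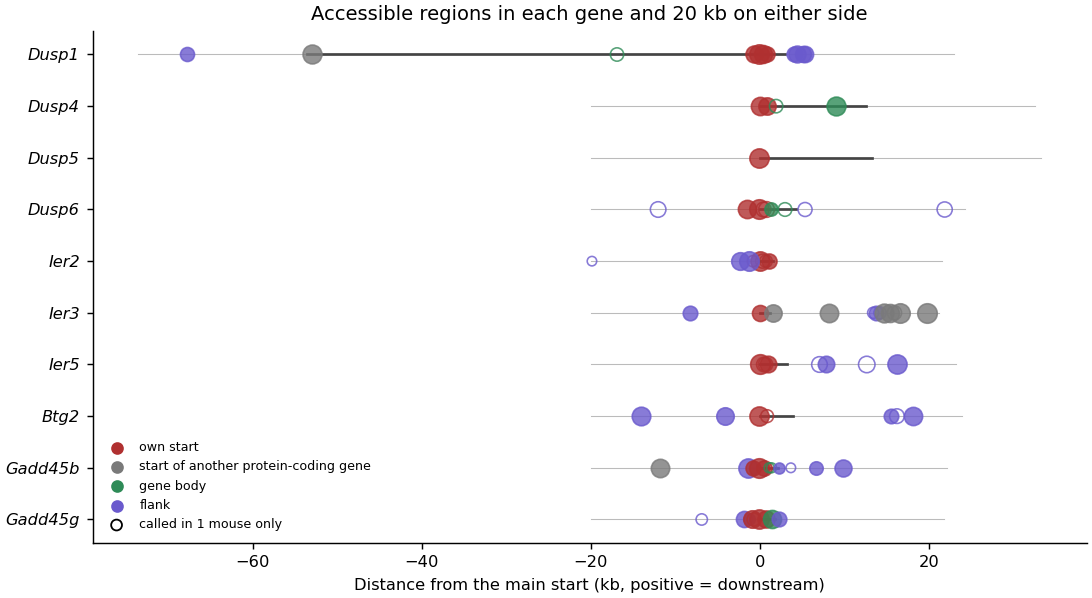
Merged accessible regions by distance from the main start (horizontal axis, kb) in each gene body (dark line) and 20 kb on each side (pale line), coloured by position, with larger symbols for higher percentiles and open symbols for regions called in 1 mouse only. Dusp5 has 1 region in its window, while 6 of the 9 regions called in both mice around Ier3 lie at starts of other genes.

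Dusp5 had the fewest regions, with the promoter as its single region and no region of 1 mouse only. Its count rose to 3 with the longer lists and to 4 with flanks of 50 kb, where Dusp4 had fewer, 3. Its density stood at percentile 32.0 of protein-coding genes. Dusp4 had 3 regions in both mice, and the one in its intron (chr8:34816241-34816440) was higher than the promoter in replicate 1, 5.87 against 3.04, and lower in replicate 2, 2.34 against 2.57. Dusp1 had 10 regions, and its annotated body is the longest of the group (56539 bp) because of transcripts that start far upstream. The furthest of its regions in the gene body (chr17:26561341-26561580, heights 4.83 and 3.26) lay at a start of Ergic1. It was also within 1 kb of the furthest upstream start of Dusp1.

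Dusp6 had an accessible block of 1280 bp upstream of its promoter (chr10:99261121-99262400), merged from 3 peaks in each mouse. The highest of these peaks reached 2.93 and 2.72, and the block held 18 and 17 footprints in replicate 1 and replicate 2. Its distal part held CArG box and ETS matches, which the 300 bases at the Dusp6 start did not. The stretch chr10:99261227-99261474 (plus strand) is printed with a CRE core, CCAAT boxes, 2 CArG boxes and an ETS match in capitals, and 1 CCAAT box lies inside a CArG box on the other strand.
Dusp6 upstream region: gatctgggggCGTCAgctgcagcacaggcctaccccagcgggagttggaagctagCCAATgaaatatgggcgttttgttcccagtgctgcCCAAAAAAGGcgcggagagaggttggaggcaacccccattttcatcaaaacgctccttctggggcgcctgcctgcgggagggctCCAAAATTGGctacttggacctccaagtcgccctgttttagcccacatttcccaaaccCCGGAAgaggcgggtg
The ETS match at -1769 and the CCAAT box at -1947 were overlapped by footprints in both mice. The CArG box at -1909 was overlapped in replicate 2 alone and that at -1825 in neither mouse. ETS matches in promoter regions were under footprints of both mice in 26.8% of cases.

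Ier2 had a second high region upstream (chr8:84663961-84664200) with heights of 6.49 and 5.31, above its promoter in each mouse and within 1 kb of a start of the noncoding gene Gm26664. Ier3 had the second highest count, 9 regions, and density percentile 99.5, but its neighbours supplied most of them, and with flanks of 10 kb the count was 4. The highest lay at starts of Mdc1 (chr17:35841221-35841620, 6.51 and 6.83) and Tubb5 (chr17:35838181-35838440, 7.47 and 4.66). The Ier3 promoter was lower than each of the 6 regions at starts of other genes in both mice.

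Ier5 had a region downstream (chr1:155083261-155083580) with heights of 6.55 and 3.44, within 1 kb of a start of Gm9530. It held an EGR match that overlaps SP/KLF matches, all in capitals in the stretch chr1:155083408-155083476 (minus strand).
Ier5 downstream region: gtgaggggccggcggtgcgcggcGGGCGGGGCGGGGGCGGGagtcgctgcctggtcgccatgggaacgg
The EGR match was overlapped by footprints in both mice.

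Btg2 had regions 14011 bp upstream (chr1:134092981-134093280, 3.70 and 2.94), 4061 bp upstream (chr1:134083041-134083320, 2.51 and 1.60) and 18079 bp downstream (chr1:134060901-134061180, 2.74 and 2.99). All 3 were lower than its promoter in each mouse, and with flanks of 10 kb its count of 5 was 2. Gadd45b had 8 regions, among them one 1342 bp upstream (chr10:80928621-80928840) with heights of 6.46 and 3.65. Gadd45g had 7, which lay between 1837 bp upstream and 2219 bp downstream of the start, including one over an exon in the gene body (chr13:51847941-51848320, percentiles 80.5 and 84.2). Density percentiles were 99.0 for Gadd45b, 98.1 for Gadd45g and 92.7 for Btg2.

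**Figure D4:**
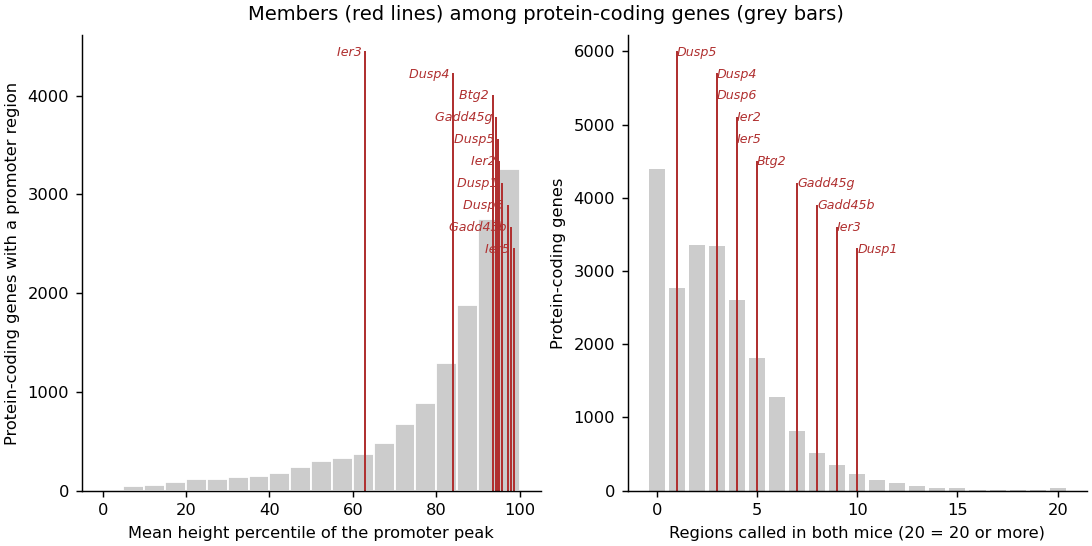
Left, protein-coding genes with a promoter region by mean height percentile of the promoter peak, and right, all protein-coding genes by number of regions called in both mice in the gene body and 20 kb flanks (grey bars), with the 10 genes as red lines. On the left 8 genes stand above percentile 93 and Ier3 at 63.0, and on the right the genes run from 1 region (Dusp5) to 10 (Dusp1).

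The mice were unequal in what only 1 of them showed. Of 26 regions called in 1 mouse, 20 (76.9%) were of replicate 2 and 6 of replicate 1, against 50.3% of replicate 2 in the genome. The longer list of the other mouse held 16 of the 26 (61.5%), against 51.3% of such regions in the genome. Dusp6 had the most regions of replicate 2 alone, 5. Not all regions of 1 mouse are separate sites. Around Ier3, chr17:35835081-35835106 and chr17:35835861-35835943 of replicate 2 lay on either side of chr17:35835121-35835853, called in both mice. Across the 52 member regions with 1 peak per mouse, the centred log2 ratio ran from -0.92 to 0.99.

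Genes related by family or pathway were read from lists of known members. Of the other MAP kinase phosphatases 5 of 6 had a promoter region, with a median percentile of 94.7, led by Dusp7 (96.7), Dusp10 (95.4) and Dusp8 (94.7), and Dusp9 had none. Atypical dual-specificity phosphatases had one in 11 of 11 genes, with a median of 87.6, led by Dusp19 (97.6), Dusp18 (95.5) and Dusp3 (92.8). Relatives of the Ier, Btg and Gadd45 genes had one in 6 of 7, with a median of 94.9, led by Btg1 (99.3), Ier5l (95.8) and Tob2 (95.3), and Btg4 had none.

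Sprouty and Spred genes, which encode feedback inhibitors of growth factor signalling, had a promoter region in 6 of 6 genes found, with a median of 87.7, led by Spry1 (99.1), Spry4 (96.5) and Spred1 (87.8). MAP kinases, the substrates of the Dusp phosphatases, and their upstream kinases had one in 17 of 18, with a median of 94.3, led by Map2k7 (99.8), Mapk14 (99.5) and Map2k1 (99.4), and Mapk13 had none. The medians of these lists lay between 87.6 and 94.9, and the 10 genes shared the upper end of that range with the relatives.

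**Figure D5:**
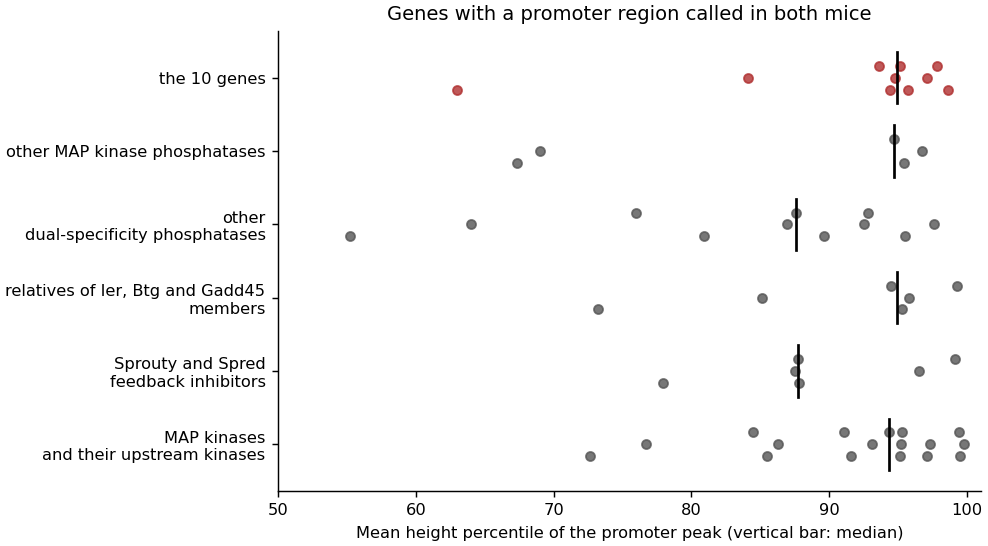
Mean height percentile of the promoter peak (horizontal axis) for each gene with a promoter region, by list, with the median of each list as a vertical bar. The 10 genes (red) have a median of 94.9, the MAP kinases and their upstream kinases 94.3 and the atypical phosphatases 87.6.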

How the data were processed

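DNase-seq libraries of 2 mice were analysed, numbered as in the labels. Per the deposited read-me texts, the authors made peak, footprint and cut rate files per library on mm10, and the aligner and callers are not stated in them or in the labels. Peak height, as deposited, is a signal with an unstated factor. The score that the authors deposited for footprints never varies, so positions alone were used. The deposited cut rate FDR is a q-value, listed under 0.05. Each library has 2 peak lists, and the shorter, taken as cut at an FDR of 0.001, was used.

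Peaks of the mice that overlapped by 1 bp were merged. A region was counted where its centre lay in the gene body or 20 kb on each side, and a promoter region came within 1 kb of a start. Positions use GENCODE M21 and the GRCm38.p6 sequence, on which 27887 of 27907 start codons read ATG. Python 3.11.15, pandas 2.3.3, numpy 2.4.6 and samtools 1.23.1 were used, and merging and motif search were tested on simulated data.

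The genes, lists and motifs were chosen with earlier results of these data known. Named are the 10 genes, the 3 highest genes of each related list and those without a promoter region, and up to 3 of the highest regions of each gene away from its start. Other regions, and markers, were named after their values were seen. Spry3 could not be matched to 1 entry and was not used here.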

Additional observations from a re-analysis of the deposited data

How the results depend on the processing

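All 10 genes kept a promoter region under every alternative tried except a reciprocal overlap of 50 percent, which left 8. Leaving out a replicate or widening the promoter window to 2 kb could not lower this count, and the longer lists could hardly do so. Of the settings that could lower it, peaks above the median height and a window of 500 bp left 10. No share of all protein-coding genes is given for the alternatives, so these counts cannot be set against the 61.1% above. The cut rate count stayed at 10, which leaving out a replicate could not lower. The number of regions called in both mice, 54, became 84 with the longer lists and 94 with flanks of 50 kb, and 63 to 74 with either replicate left out. The share in both mice, 67.5%, fell to 53.8% under the reciprocal overlap, a setting at which no genome share is given. Median density, 1.00, became 1.71 with the longer lists, 1.26 with flanks of 10 kb and 0.686 without regions near starts of other genes, and 1.28 to 1.65 with either replicate left out. The median height percentile, 94.9, became 97.1 in the longer lists, and 94.9 to 95.0 with either replicate left out. Shared footprints, 184, became 297 with flanks of 50 kb, and single libraries held 352 to 419. The CRE count of 3 became 9 for the CRE core TGACG, which 47.2% of genes with a promoter region hold. That count and share are not alike, because the promoter regions searched were longer in the 10 genes (median 840 bp against 440 bp). The count of the full CRE was 2 under the reciprocal overlap, where fewer regions count as called in both mice. With replicate 1 left out it was 2, because the Btg2 match lies outside the replicate 2 peak, and with replicate 2 left out it was 3. Of the other 60 values for single genes, 24 moved by more than the spread between mice or by over 1.5 times. A share in both mice cannot be had from 1 library. No paired analysis was possible because there is 1 group. Depth is unknown, so a region missing from 1 mouse was not detected at that threshold.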
